A study of Rattus norvegicus with 6 samples.

Results

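Macroautophagy encloses cytoplasmic cargo in a double membrane that then fuses with lysosomes. Small ubiquitin-like proteins of the ATG8 family, the LC3 and GABARAP proteins, are attached to lipid on the growing membrane, and cargo receptors hold ubiquitin-tagged aggregates or organelles with a ubiquitin-binding domain and the membrane-bound ATG8 proteins with a short LC3-interacting motif. In heart muscle, whose cells are rarely replaced, this route clears damaged mitochondria and misfolded proteins. The receptors are themselves degraded with their cargo, so a transcript level does not give the amount of receptor protein or the rate of autophagy, neither of which was measured here.

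The 10 genes described here were the receptors Sqstm1, Nbr1 and Optn, the ATG8 genes Map1lc3a, Map1lc3b, Gabarap, Gabarapl1 and Gabarapl2, and the nucleation genes Becn1 and Wipi1. They were chosen by gene symbol, and each matched 1 of the 34257 genes in the expression table. The study compared ventricular cardiomyocytes isolated from newborn rats and cultured with perhexiline at 1 µM for 24 h (3 libraries) with cultures given vehicle (3 libraries). Perhexiline is an antianginal drug that blocks mitochondrial entry of long-chain fatty acids, and it has been described in human cell lines as an inhibitor of mTORC1, a kinase that restrains autophagy. Rat strain, vehicle and the origin of replicates (separate isolations or not) were not given in the sources used here. The p-values therefore reflect only how far these libraries spread, which may be technical. The values are FPKM, fragments scaled to gene length and library depth, and so can be set side by side between genes.

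With perhexiline, 2 of the 10 genes rose and none fell. Sqstm1, which encodes the receptor p62, rose 1.63-fold, and Optn, which encodes the receptor optineurin, rose 1.28-fold. None of the 5 ATG8 genes, and neither of the nucleation genes, passed the test. The test was limma on log2(FPKM + 1) over 13460 genes, of which 6.66% passed an adjusted p of 0.05 (3.55% as higher and 3.11% as lower). At an unadjusted p under 0.05 there were 4 of the 10 genes, all higher, with Nbr1 and Gabarapl1 as the others, against 25.7% of all tested genes (13.4% higher and 12.3% lower). Limma-voom, fitted to recovered fragments, called Sqstm1 and Optn as well, against 11.7% of all tested genes (5.32% higher and 6.34% lower). The ranges of both groups were separate for 5 of the 10 genes (Sqstm1, Nbr1, Optn, Gabarapl1 and Wipi1), against 31.9% of all tested genes. The median log2 difference of the 10 genes was 0.03, against 0.01 for all tested genes.

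**Figure D1:**
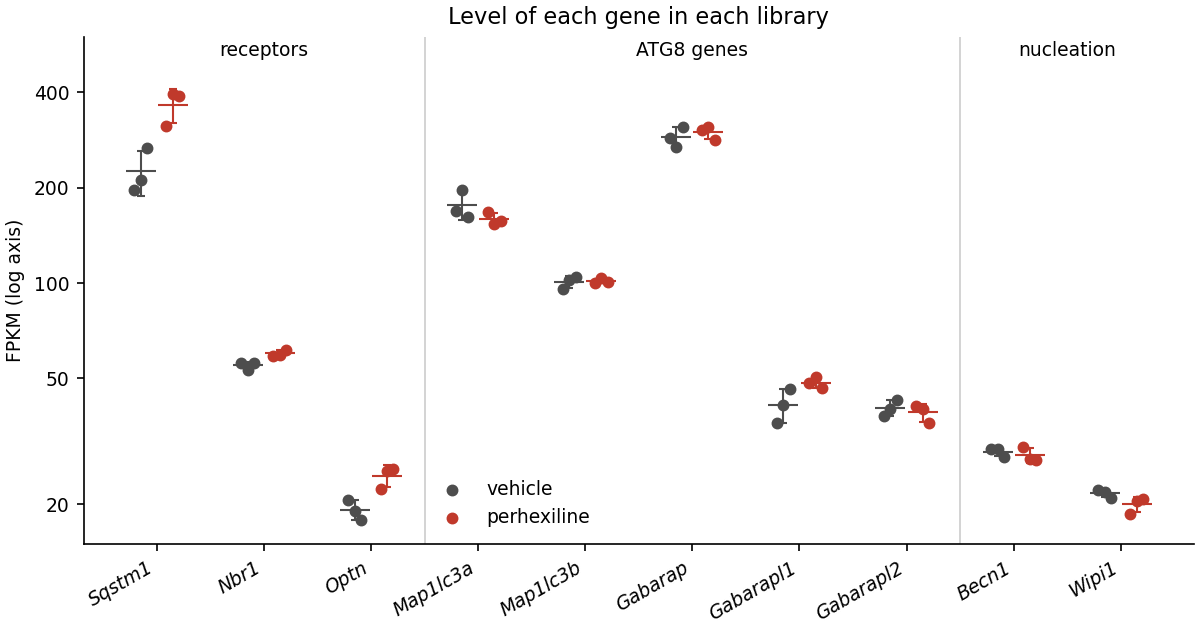
FPKM (log axis) of the 10 genes in each of 3 vehicle (grey) and 3 perhexiline (red) libraries, with horizontal ticks for the mean and bars for 1 SD. Sqstm1 lay at 197 to 267 FPKM with vehicle and 314 to 395 with perhexiline, and Optn at 17.9 to 20.7 and 22.4 to 25.9. The groups overlapped for 4 of the 5 ATG8 genes, and were separate for 31.9% of all tested genes.

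Depth was 13616252 to 15241994 fragments per vehicle library and 14863929 to 16702523 per perhexiline library. Each of the 10 genes held between 561 fragments (Wipi1) and 13769 fragments (Sqstm1) in a library, so counting error was at most 4.22%, which covers counting alone. The cells carried the markers their label calls for, with 7 cardiomyocyte markers summing to 15408 to 18606 FPKM with vehicle and 12564 to 14463 with perhexiline, 2 of the 7 being called lower, 5 being lower at an unadjusted p under 0.05 and 5 with limma-voom. Macrophage markers summed to 37.8 to 43.5 and 21.6 to 31.4 FPKM in the same groups, with 2 of 5 tested called lower, 4 lower at an unadjusted p under 0.05 and 3 with limma-voom (Adgre1, Cd163 and Aif1 were under 1 FPKM in all libraries). Smooth muscle and pericyte markers summed to 604 to 907 and 466 to 622 FPKM, with 0 of 7 called by limma, 4 at an unadjusted p under 0.05 and 2 with limma-voom, all lower. Acta2 alone, at means of 697 and 464 FPKM, made up most of these sums, and 3 of the 7 log2 differences were above 0. Fibroblast markers summed to 1043.5 to 1083 and 1003 to 1049.9 FPKM, with 2 of 8 called higher and 1 lower, and endothelial markers to 16.7 to 19.8 and 18.4 to 19.3, with 0 of 4 called, 0 at an unadjusted p under 0.05 and 0 with limma-voom (Cdh5, Vwf and Emcn were under 1 FPKM). No marker in the table was at 0 in all libraries. Vehicle replicate 3 had the lowest cardiomyocyte sum of its group (15408 FPKM) and perhexiline replicate 1 the highest of its own (14463), and these were also the libraries nearest to each other in Sqstm1. In these bulk samples, fewer cells of a type and less RNA per cell cannot be told apart, and the part of any of these marker shifts in the results on autophagy genes was not tested.

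Sqstm1 lies on chromosome 10, from 35704730 to 35716294 on the minus strand, in the authors' coordinates, on a build not given in the sources used here. The table annotates its protein with a PB1 domain, a ZZ zinc finger and a UBA domain. p62 assembles into filaments through PB1, binds ubiquitin through UBA, and also holds KEAP1, which frees the antioxidant transcription factor NRF2. Sqstm1 stood at 197, 211 and 267 FPKM in vehicle replicates 1, 2 and 3, and at 314, 395 and 389.6 FPKM in perhexiline replicates 1, 2 and 3. Every perhexiline library was above every vehicle library, with vehicle replicate 3 and perhexiline replicate 1 nearest to each other. The means were 225 ± 36.9 and 366 ± 45.1 FPKM (SD, n = 3). The log2 difference was 0.70 ± 0.13 (SE), with a 95% confidence interval of 0.40 to 1.01 and a limma adjusted p of 0.0285. The call was lost without vehicle replicate 1 (adjusted p = 0.0841), vehicle replicate 2 (0.0897), perhexiline replicate 2 (0.0980) or perhexiline replicate 3 (0.0937), and with no filter on low values (0.0788), and adjusted p ranged from 0.00373 to 0.0980 over 14 alternatives while the log2 difference stayed between 0.62 and 0.83. In those same 4 fits the calls over all genes fell from 896 to 136, 140, 145 and 108, in that order.

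Optn lies on chromosome 17, from 77167740 to 77218389 on the plus strand. Optineurin is a ubiquitin-binding receptor for mitochondria and bacteria that is phosphorylated by the kinase TBK1, and the table annotates it with domains of the NF-kB modulator NEMO. In human cells it is known to be induced by tumour necrosis factor. Optn stood at 20.7, 19.0 and 17.9 FPKM in vehicle replicates 1 to 3 and at 22.4, 25.5 and 25.9 FPKM in perhexiline replicates 1 to 3. The groups did not overlap, and perhexiline replicate 1 was again the lowest of its group. The means were 19.2 ± 1.42 and 24.6 ± 1.94 FPKM, and the log2 difference was 0.34 ± 0.079 (SE), with a 95% confidence interval of 0.16 to 0.52 and a limma adjusted p of 0.0461. Among other settings, the call was lost under upper-quartile scaling (adjusted p = 0.0580), with no filter (0.0981) and in 5 of 6 fits without 1 library, the exception being the fit without perhexiline replicate 1 (0.0360). Leaving out vehicle replicate 1, 2 or 3 gave adjusted p of 0.0799, 0.122 and 0.0827, and leaving out perhexiline replicate 2 or 3 gave 0.1501 and 0.137. The range over the 14 alternatives was 0.0140 to 0.1501.

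Since Sqstm1 and Optn were the genes that rose, the 250 bases upstream of their RefSeq gene starts are shown, from build GRCr8, which need not be the build of the table. Each is written 5′ to 3′ in the direction of the gene, at chr10:35037751-35038000 on the minus strand for Sqstm1 and chr17:78118619-78118868 on the plus strand for Optn. Capitals mark matches on either strand to GC boxes (GGGCGG), the TATA box (TATAAA) and the NF-kB consensus.
Sqstm1: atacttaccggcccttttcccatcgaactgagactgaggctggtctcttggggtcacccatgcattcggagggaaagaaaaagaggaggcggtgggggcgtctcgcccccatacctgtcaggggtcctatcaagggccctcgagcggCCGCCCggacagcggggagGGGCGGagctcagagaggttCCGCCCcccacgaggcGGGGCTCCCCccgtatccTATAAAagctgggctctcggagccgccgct
Optn: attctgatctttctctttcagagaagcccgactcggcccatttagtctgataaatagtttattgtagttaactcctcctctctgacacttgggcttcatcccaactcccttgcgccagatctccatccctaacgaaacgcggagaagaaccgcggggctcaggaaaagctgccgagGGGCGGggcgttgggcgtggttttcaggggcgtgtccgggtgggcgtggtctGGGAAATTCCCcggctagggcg

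Both windows were rich in G and C, at 65.2% for Sqstm1 and 56.4% for Optn against a median of 51.2% over 33469 upstream windows. This did not set them apart, since the windows of the other 6 matched genes ran from 53.6% (Nbr1) to 69.6% (Wipi1). The Sqstm1 window held 3 GC boxes and a TATA box that began 30 bases before the gene start, and the Optn window held 1 GC box and no TATA box. A GC box was present in 30.5% of all windows and a TATA box in 12.9%. GC boxes also lay in the windows of Nbr1, Gabarap, Gabarapl1, Gabarapl2 and Wipi1, and a TATA match in that of Gabarapl1. Matches to the NF-kB consensus began 48 bases before the start of Sqstm1 and 22 and 21 bases before that of Optn, the latter pair overlapping each other, and 6.33% of all windows held at least 1. The other 6 genes with a window (Nbr1, Map1lc3b, Gabarap, Gabarapl1, Gabarapl2 and Wipi1) held no match to it. Neither window held the antioxidant response element core TGACNNNGC (10.1% of all windows), the E-box CACGTG bound by TFEB (5.59%) or the C/EBP-ATF response element core TGATGNAA (3.40%). Among the other 6 genes, Gabarap alone held 1 of these, an antioxidant response element core that began 179 bases before its start. These motifs were chosen after the values were seen, and a match of letters is not a bound site. Sequence outside these windows was not searched, so a motif missing here may lie elsewhere. No upstream window was matched for Map1lc3a and Becn1.

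Nbr1, the receptor most like p62 in domain order and its partner through the PB1 domain, lies on chromosome 10, from 89459650 to 89484080 on the plus strand. It stood at 55.8, 53.3 and 56.0 FPKM with vehicle and at 59.0, 59.4 and 61.4 with perhexiline. The groups did not overlap, but the gap was small, with means of 55.0 ± 1.498 and 59.96 ± 1.30 FPKM. Its log2 difference of 0.12 ± 0.045 (SE; 95% confidence interval 0.02 to 0.23) did not pass the test over all genes (limma adjusted p = 0.144).

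**Figure D2:**
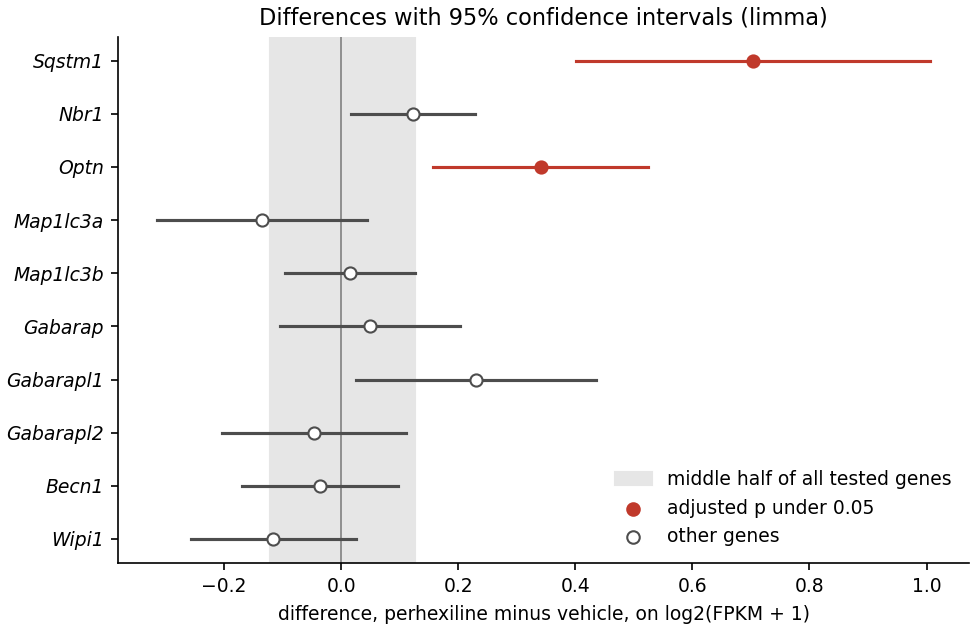
Log2 difference (perhexiline minus vehicle, on log2(FPKM + 1)) of each gene with its 95% confidence interval from limma, with the interquartile range of all 13460 tested genes shaded. Sqstm1 (0.70) and Optn (0.34) are filled as past an adjusted p of 0.05, and the next largest, Gabarapl1 (0.23), is open.

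The 5 ATG8 genes encode proteins that share 1 annotated domain, the ATG8 ubiquitin-like fold. LC3 proteins act mainly in membrane growth and cargo capture, and GABARAP proteins mainly in later closure and fusion. Of the 5, limma called 0, with 1 (Gabarapl1) at an unadjusted p under 0.05 and 0 by limma-voom. Their median log2 difference was 0.02, against 0.01 for all tested genes.

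Gabarapl1, on chromosome 4 from 163293724 to 163302858, stood at 36.2, 41.3 and 46.4 FPKM with vehicle and at 48.4, 50.4 and 46.5 with perhexiline. The groups were separated only narrowly, by vehicle replicate 3 and perhexiline replicate 3. The means were 41.3 ± 5.12 and 48.4 ± 1.93 FPKM, and the log2 difference was 0.23 ± 0.088 (SE), with a 95% confidence interval of 0.02 to 0.43 and a limma adjusted p of 0.155. Adjusted p was between 0.0516 and 0.355 over the alternatives.

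Gabarap, on chromosome 10 from 56601288 to 56604221, was the most abundant ATG8 gene, at 288, 269 and 311 FPKM with vehicle and 304, 310.2 and 283 with perhexiline. Map1lc3a, on chromosome 3 from 150801289 to 150802935, followed at 169, 196 and 162 FPKM with vehicle and 167, 154.0 and 157 with perhexiline. Both ranges overlapped between the groups, and the 95% confidence intervals of the log2 differences were -0.10 to 0.20 for Gabarap and -0.31 to 0.04 for Map1lc3a. Map1lc3b, the LC3 form most often followed as an autophagosome marker, lies on chromosome 19 from 53629779 to 53646058. It stood at 96.1, 102 and 104 FPKM with vehicle and at 100.2, 104 and 101 with perhexiline, with overlapping groups and an interval of -0.10 to 0.13 (limma adjusted p = 0.870). Gabarapl2, also on chromosome 19, from 44164935 to 44175770, stood at 38.1, 40.1 and 42.9 FPKM with vehicle and at 40.9, 40.1 and 36.1 with perhexiline, with an interval of -0.20 to 0.11. The signs of Map1lc3b and Gabarapl2 depended on the processing, turning under upper-quartile scaling for Map1lc3b (-0.02) and under total-fragment scaling for Gabarapl2 (0.01), and that of Gabarap turned without vehicle replicate 2 (-0.0016). A processed pseudogene on chromosome 8 that the table describes as like Gabarapl2 was listed at 14.8 to 18.6 FPKM, so reads may have been split between the copies.

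**Figure D3:**
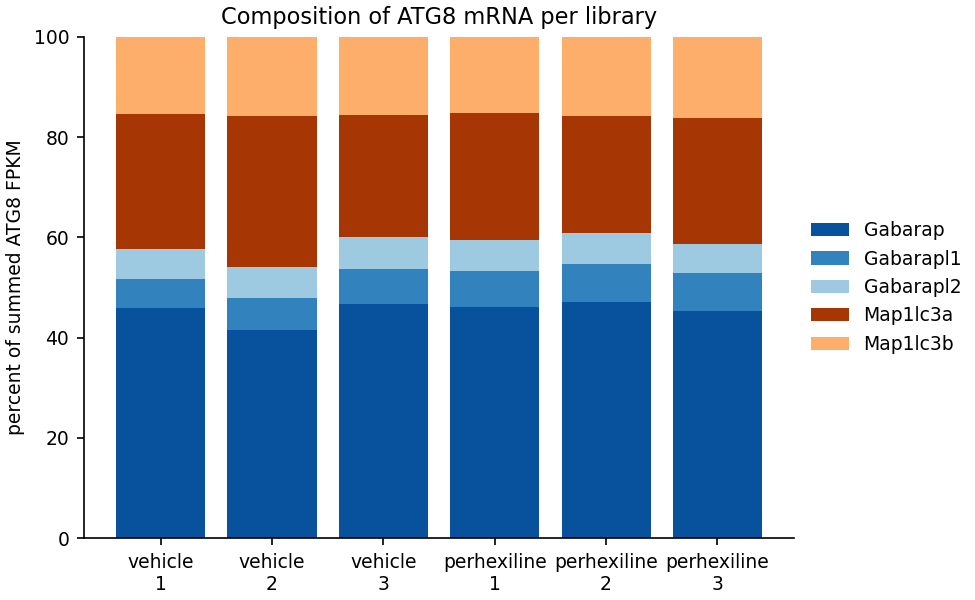
Share of each ATG8 gene in the summed ATG8 FPKM of each library, as stacked bars from 0 to 100%. Gabarap took 41.5% to 46.6% with vehicle and 45.4% to 47.1% with perhexiline, and Gabarapl1 5.77% to 6.97% and 7.32% to 7.65%.

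Summed over the 5 genes, ATG8 transcripts came to 627, 649 and 667 FPKM with vehicle and 661, 659 and 625 with perhexiline, means of 648 ± 19.7 and 648 ± 20.5 FPKM. Gabarap made up 44.7% ± 2.80 of this sum with vehicle and 46.2% ± 0.867 with perhexiline, and the 3 GABARAP genes together 57.3% ± 3.04 and 59.6% ± 1.11. The share of Map1lc3a was 27.2% ± 2.98 and 24.6% ± 1.10, and that of Gabarapl1 6.37% ± 0.597 and 7.47% ± 0.164. The ATG8 sum overlapped between the groups, and Sqstm1 did not. Sqstm1 FPKM divided by the ATG8 sum was 0.315, 0.325 and 0.400 with vehicle and 0.475, 0.599 and 0.624 with perhexiline.

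The order of levels differed between the groups at the top. With vehicle, Gabarap (289 ± 21.0 FPKM) was first, followed by Sqstm1, Map1lc3a, Map1lc3b, Nbr1, Gabarapl1, Gabarapl2, Becn1, Wipi1 and Optn, and only Gabarapl1 and Gabarapl2 overlapped in range among neighbours. With perhexiline Sqstm1 was first and Gabarap (299 ± 14.1 FPKM) the next, and no neighbours overlapped. Sqstm1 was 0.685 to 0.859 times Gabarap with vehicle and 1.03 to 1.37 times with perhexiline. Optn and Wipi1 also exchanged places at the bottom of the order. By mean FPKM over all libraries, Sqstm1 lay at percentile 98.5 of tested genes and Wipi1, the lowest of the 10, at percentile 69.1.

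Becn1 and Wipi1 act before ATG8 attachment. Beclin 1, from Becn1 on chromosome 10 (89209940 to 89225297, minus strand), is a subunit of the class III PI3-kinase complexes that make the lipid PI3P, and is held in check by BCL2 proteins through the BH3 domain listed for it. Becn1 stood at 29.8, 29.98 and 28.2 FPKM with vehicle and at 30.4, 27.9 and 27.6 with perhexiline, with overlapping groups (limma adjusted p = 0.726; 95% confidence interval -0.17 to 0.10) and a sign that turned under total-fragment scaling (0.02). WIPI1, from Wipi1 on chromosome 10 (97859727 to 97896525, minus strand), binds PI3P at the forming membrane. Wipi1 stood at 22.3, 21.9 and 20.9 FPKM with vehicle and at 18.7, 20.5 and 20.8 with perhexiline, so the perhexiline libraries were lower without overlap, by a log2 difference of -0.12 ± 0.060 (SE) that did not pass (limma adjusted p = 0.271). Wipi1 shares 3585 bases with Arsg on the other strand, which stood at 4.02 to 4.87 FPKM, and Sqstm1 shares 47 bases with Mrnip, at 2.26 to 3.36 FPKM. The libraries kept strand, per the labels, but the strand setting of the counting was not given in the sources used here.

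Across the other steps of the pathway few transcripts passed the test. Of 91 other autophagy genes listed by function, 87 were in the table and 85 were tested. Limma called 0 higher and 1, Mitf, lower, against 3.55% and 3.11% of all tested genes. The same shares stand beside the limma calls of each list below. At an unadjusted p under 0.05 there were 20 higher and 7 lower of the 85, against 13.4% and 12.3% of all tested genes. With limma-voom 5 were called higher and 1 lower, against 5.32% and 6.34% of all tested genes. Their median log2 difference was 0.07, and 65 of the 85 differences were above 0 (76.5%, against 52.9% of all tested genes). Under upper-quartile scaling these were 0.04 and 58 of 85 (68.2%, against 46.8%).

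**Figure D4:**
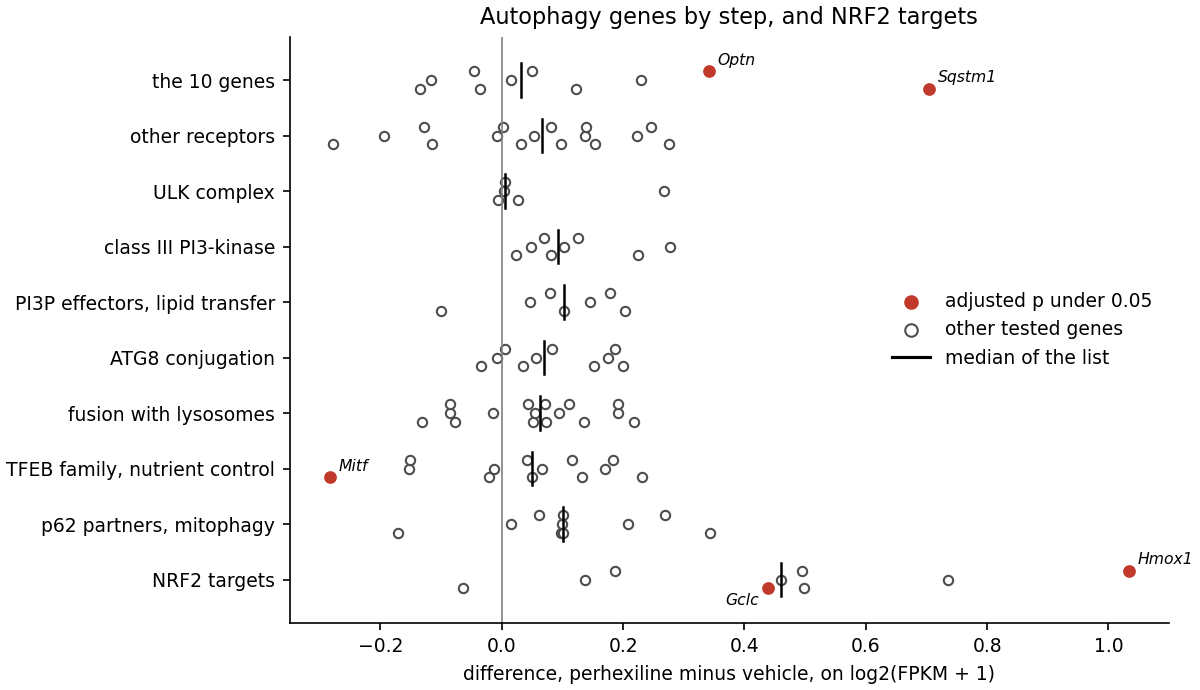
Log2 difference of each tested gene (1 point per gene) by step of autophagy, with NRF2 targets in the bottom row and black ticks at list medians. Filled points passed an adjusted p of 0.05: Sqstm1 and Optn among the 10 genes, Mitf among 85 other autophagy genes, and Hmox1 and Gclc among 9 NRF2 targets.

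Among 16 other tested receptors 0 were called, with 4 higher and 3 lower at an unadjusted p under 0.05 and 1 higher with limma-voom (Tollip, a ubiquitin-binding adaptor). The most abundant was Phb2, an inner mitochondrial membrane receptor, at 139 ± 2.86 and 153 ± 1.36 FPKM (limma adjusted p = 0.0832). Tex264, a receptor for endoplasmic reticulum named after its values were seen, stood at 34.9, 38.3 and 34.4 FPKM with vehicle and 42.9, 41.7 and 41.3 with perhexiline (limma adjusted p = 0.0564). The 3 lower at an unadjusted p were Ccpg1, Rtn3 and Fundc1, also named after their values were seen. Ccpg1 stood at 29.0 ± 1.61 and 25.2 ± 1.32 FPKM (limma adjusted p = 0.107). Rtn3 stood at 56.5 ± 1.67 and 51.6 ± 2.80 (0.190), and Fundc1 at 9.66 ± 1.32 and 7.74 ± 0.140 (0.128). Groups did not overlap for 7 of the 16 receptors, Phb2, Tex264, Ccpg1, Rtn3 and Fundc1 among them, against 31.9% of all tested genes.

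The ULK complex, the kinase that starts autophagosome formation, had 0 of 5 called, with 1 at an unadjusted p under 0.05 and 1 with limma-voom. Both were Atg101, the subunit that binds ATG13, which stood at 39.7 ± 2.86 and 47.95 ± 1.86 FPKM and missed the threshold (limma adjusted p = 0.0506). The catalytic subunit gene Ulk1 stood at 15.1 ± 1.21 and 15.1 ± 0.489 FPKM. Among 8 genes of the class III PI3-kinase complexes, the partners of Becn1, 0 were called, with 2 higher at an unadjusted p under 0.05. Limma-voom called 1 of them, Rubcn, whose product Rubicon restrains this kinase, at 24.6 ± 1.99 and 29.9 ± 0.942 FPKM (limma adjusted p = 0.0545). Vmp1, a membrane protein of the list and its most abundant gene, stood at 53.5 ± 3.48 and 56.6 ± 1.78 FPKM. Ulk1 and Rubcn were named after their values were seen.

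Of 7 tested PI3P effectors and lipid transfer genes, which include the relatives of Wipi1, 0 were called, with 2 higher at an unadjusted p under 0.05 and 0 with limma-voom. The most abundant by the mean over all libraries, the lipid scramblase gene Atg9a, stood at 36.9 ± 1.46 and 38.2 ± 0.553 FPKM, and Wipi2, the relative that recruits the conjugation machinery, at 21.8 ± 1.27 and 24.2 ± 1.16 (limma adjusted p = 0.202; named after its values were seen). Of 10 conjugation and processing genes, which attach ATG8 proteins to lipid and release them, 0 were called, with 3 higher at an unadjusted p under 0.05 and 0 with limma-voom. The main ATG8 protease gene Atg4b stood at 25.3 ± 0.784 and 28.7 ± 1.85 FPKM (limma adjusted p = 0.127). Of 16 fusion genes 0 were called, with 2 higher and 1 lower at an unadjusted p under 0.05 and 0 with limma-voom. The lysosomal membrane gene Lamp1 stood at 144 ± 6.504 and 154 ± 4.08 FPKM, with overlapping groups.

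Of 13 regulators, 1 was called, against 6.66% of all tested genes. Mitf, a relative of TFEB that activates lysosomal and autophagy genes, stood at 10.2, 9.60 and 10.3 FPKM with vehicle and at 8.07, 8.11 and 7.998 with perhexiline. It fell to 0.803 times its vehicle mean, with a log2 difference of -0.28 ± 0.062 (SE) and a limma adjusted p of 0.0414. Mitf passed in 5 of 14 alternatives and lost its call whichever library was left out, with adjusted p from 0.0102 (limma-voom) to 0.130. Tfeb stood at 23.9 ± 1.04 and 24.7 ± 1.49 FPKM (limma adjusted p = 0.664), and Tfe3 at 20.1 ± 1.26 and 23.8 ± 1.47 (0.0860), both named after their values were seen.

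Genes whose products act with p62 and optineurin were also set beside them. Of 10 tested partners and mitophagy genes 0 were called, with 3 higher and 1 lower at an unadjusted p under 0.05 and 2 higher with limma-voom (Nfe2l2 and Wdr81). Vcp, a ubiquitin-directed segregase and the most abundant, stood at 211 ± 3.60 and 213 ± 3.93 FPKM. Nfe2l2, which encodes NRF2, stood at 79.3 ± 6.68 and 95.8 ± 6.37 FPKM (limma adjusted p = 0.0719), Keap1 at 21.9 ± 2.33 and 23.4 ± 0.359 (0.451), and Tbk1 at 15.4 ± 1.13 and 17.9 ± 1.45 (0.154). The 1 lower was Pink1, at 104 ± 6.67 and 92.0 ± 5.04 FPKM (limma adjusted p = 0.149), with overlapping groups. Nfe2l2, Keap1, Tbk1 and Pink1 were named after their values were seen.

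Sqstm1 is a known NRF2 target. Of 9 other tested targets 2 rose and 0 fell, against 3.55% of all tested genes called higher. At an unadjusted p under 0.05 these were 6 and 0, a threshold that 13.4% of all tested genes passed as higher. The median log2 difference of the 9 targets was 0.46, against 0.01 for all tested genes, and limma-voom called 5 higher, against 5.32% of all tested genes. The groups overlapped for Nqo1, Gclm and Me1, and the difference of Me1 was below 0 (-0.06). They were separate for 6 of the 9 targets, against 31.9% of all tested genes. Nqo1 stood at 18.6, 19.0 and 41.0 FPKM with vehicle and at 27.7, 36.6 and 38.5 with perhexiline (limma adjusted p = 0.356). Hmox1, the haem-degrading enzyme, stood at 165, 156 and 279 FPKM with vehicle and at 333, 447 and 419 with perhexiline, a log2 difference of 1.03 (limma adjusted p = 0.0377). Gclc, the catalytic part of glutamate-cysteine ligase, stood at 41.4, 40.9 and 48.7 FPKM with vehicle and at 55.1, 60.2 and 62.8 with perhexiline, a difference of 0.44 (limma adjusted p = 0.0290). As in Sqstm1, vehicle replicate 3 was the highest vehicle library and perhexiline replicate 1 the lowest perhexiline library for both genes. Hmox1 and Gclc each kept their call in the 2 fits without 1 of those libraries and lost it in the other 4, with adjusted p of up to 0.128 and 0.0980. The same order of these libraries held in Zfp503, Ddx27 and Mmp2, picked below by correlation with Sqstm1. A role of NRF2 in these shifts was not tested.

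Among named genes, the 5 whose log2(FPKM + 1) followed Sqstm1 most closely over the 6 libraries were Zfp503 (Pearson r = 0.999), Ddx27 (0.996), Mmp2 (0.996), Prcp (0.996) and Wiz (0.996). These correlations describe 6 libraries that share their group difference and depth. Zfp503 stood at 6.89, 7.15 and 8.44 FPKM with vehicle and at 9.39, 10.6 and 10.7 with perhexiline. Zfp503, Ddx27 and Mmp2 were called higher, and Prcp and Wiz were not (limma adjusted p = 0.131 and 0.125). Among the 10 genes, Nbr1 (r = 0.896), Gabarapl1 (0.870) and Optn (0.799) followed Sqstm1 most closely, and Map1lc3a (-0.743) was the most opposed.

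**Figure D5:**
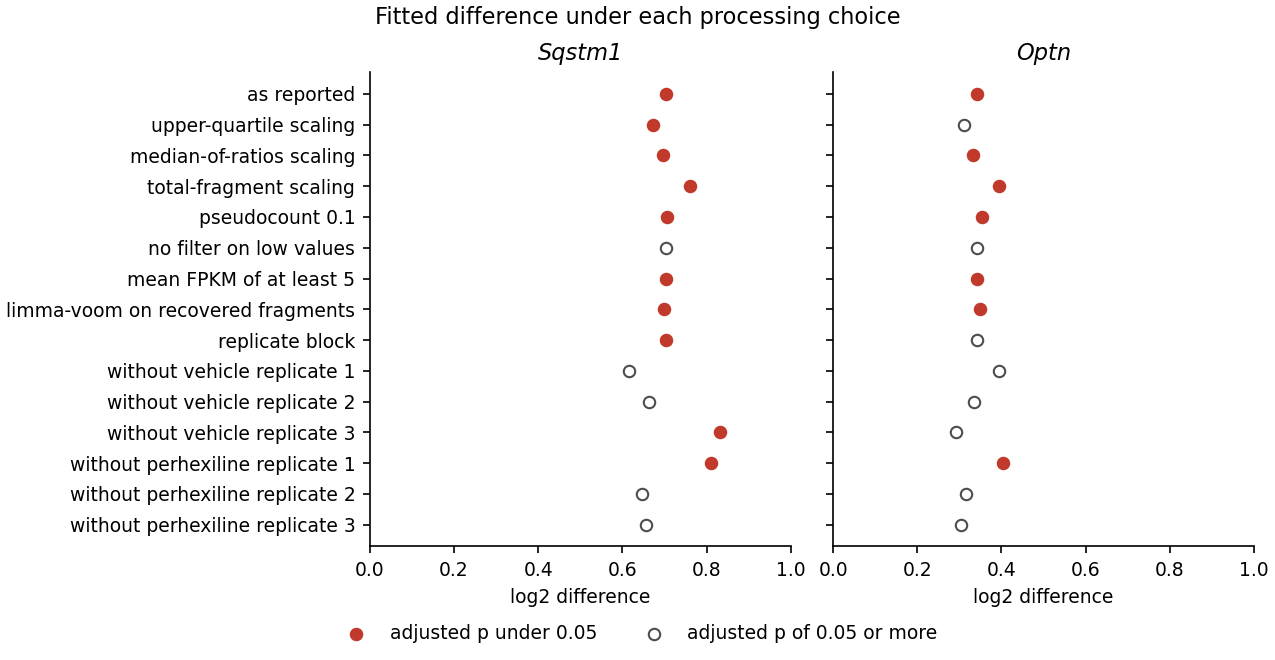
Fitted log2 difference (x axis) of Sqstm1 (left) and Optn (right) under each processing choice (y axis), filled where the adjusted p was under 0.05. Sqstm1 stayed between 0.62 and 0.83 and Optn between 0.29 and 0.40, and Sqstm1 passed in 9 and Optn in 6 of 14 alternatives.

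The plot of fitted differences under each choice shows that the size of both rises varied less than their side of the threshold. Over all genes, 53.3% of calls were higher as reported, 42.5% with upper-quartile scaling and 70.7% when scaled by total fragments. Total-fragment scaling called 8 of the 85 other autophagy genes higher (Tollip, Tex264, Phb2, Stbd1, Atg101, Rubcn, Mcoln1 and Wdr81) and none lower. Over all genes, it called 815 of 13461 higher. A mean of at least 5 FPKM gave 5 of 83 higher, against 583 of 9282. Limma-voom gave 5 of 85, against 716 of 13460, and leaving out vehicle replicate 3 gave 4 of 85, against 423 of 13249. The count of 0 for these genes therefore depended on the processing. The direction of Sqstm1, Optn, Nbr1 and Gabarapl1 (higher) and of Map1lc3a and Wipi1 (lower) was the same in all 14 alternatives.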

How the data were processed

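Poly(A) RNA was read as pairs from 6 libraries, grouped by their titles. The authors deposited FPKM per gene and library, per the file headers. HISAT2 2.0.5 and DESeq2 are named in the submitters' processing notes without a role, with build and counting program not given in the sources used here. Multiplied by gene length, 100.0% of positive values were whole multiples (tolerance 0.01) of a library's smallest step, and these multiples were taken as fragments. Genes with at least 1 FPKM in at least 3 libraries were fitted with limma 3.58.1 in R 4.3.3 on log2(FPKM + 1), with a mean-variance trend, group as the only term, two-sided, and Benjamini-Hochberg adjustment over all tested genes. This scale understates changes of low genes. Folds are mean FPKM ratios. The fit was tested on simulated data that gave every gene the same spread beyond counting error. Genes with a wider spread were not covered. No 2 libraries were identical.

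The 10 genes and the gene lists were chosen with earlier results of these data known. Named genes are the 10, up to 3 called genes per list and direction or the most abundant where none was called, and the 5 most correlated with Sqstm1. Any other gene was named after its values were seen. Listed genes under the filter (Calcoco1, Atg9b) were not tested, and 4 symbols were not matched. Upstream windows are RefSeq sequences of GRCr8, matched by symbol for 8 of the 10 genes. Alternatives were 3 scalings, a pseudocount of 0.1, no filter, a mean of at least 5 FPKM, limma-voom, the replicate number as a block and each library left out.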

Additional observations from a re-analysis of the deposited data

How the results depend on the processing

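With no filter on low values, 162 of all genes, 0 of the 10 genes and 0 of the other autophagy genes were called. Limma-voom called 1570 genes in all and 6 other autophagy genes. A mean of at least 5 FPKM called 1106 and 6, and total-fragment scaling 1152 and 8. Upper-quartile scaling called 922 genes in all and 1 of the 10 genes. Leaving out each library in turn gave 108 to 894 calls over all genes, 0 to 2 among the 10 genes and 0 to 4 among the other autophagy genes. The values showed no pairing by replicate number. Deviations from the group means correlated at -0.101 to -0.023 between same-numbered libraries, and no library was closest to its own number. With 3 libraries per group this cannot establish that the cultures were unpaired. With the replicate block, 173 genes were called in all, 1 of the 10 genes (Sqstm1, with adjusted p = 0.117 for Optn) and 0 other autophagy genes. The causes were not tested. Pseudocount and median-of-ratios scaling left these 3 counts within 1.5 times. Counting error was at most 4.22% for the 10 genes.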
